A study of Arabidopsis thaliana with 9 samples.

Results

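Whole Arabidopsis thaliana seedlings carrying a microRNA-resistant form of the SPL13 gene, called mSPL13, were compared with the untransformed wild type Col-0. The 6 arrays were those titled mSPL13 or Col-0, 3 of each, out of 9 arrays in the series, and every probe set other than the controls entered the comparison. The comparison asks which nuclear genes differ in 3-day seedlings when SPL13 escapes its microRNA. All seedlings had the Col-0 background. The mSPL13 group held a mutated SPL13 transgene under its native promoter, beside the endogenous gene, and the Col-0 group held no transgene. Another 3 arrays, from seedlings with the non-mutated SPL13 transgene under the same promoter, are given beside the results as values, and entered the filter on low signal and the estimate of the spread. Seeds of all 3 genotypes were kept at 4 °C in the dark for 3 days and then at 22 °C in light for 3 days, on agar with Murashige and Skoog salts and 1% sucrose. The replicates came from independent seed lots, and the sources used here do not give the number of transgenic lines or their selection. RNA was taken from whole seedlings, in which fewer cells of a type and less RNA per cell cannot be told apart.

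SPL proteins are plant transcription factors that promote the passage from juvenile to adult growth and from vegetative growth to flowering. The microRNA miR156 is abundant in young seedlings and represses many SPL transcripts, and its level falls as the plant ages. A transgene with an altered miR156 site keeps its transcript free of this repression, so that SPL activity appears early. SPL factors of Arabidopsis are also known to act on trichome formation and on anthocyanin synthesis.

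Signals are the deposited intensities, in arbitrary units. The median signal of an array lay between 175.6 and 190.8, and log2 signals of any pair of the 6 arrays correlated between 0.960 and 0.983. The 3'-to-5' signal ratios of the control transcripts, a measure of RNA integrity, were 0.882 ± 0.0619 in Col-0 and 0.957 ± 0.0955 in mSPL13 for GAPDH (SD, n = 3). They were 2.19 ± 0.184 and 2.31 ± 0.491 for ubiquitin, and 15.6 ± 6.0 and 21.6 ± 8.42 for actin. In 2-sided exact permutation tests the p-values were 0.3, 0.8 and 0.4 (0.6, 0.8 and 0.6 after adjustment over the 3 ratios), where 3 against 3 arrays cannot go below 0.1. Col-0 replicate 3 stood apart from the other 2 Col-0 arrays on flavonoid genes, several expansins and AT5G61590, and values without it are given with those results. Markers of green seedling tissue were bright. RCA, the Rubisco activase, gave 23258, 24074 and 20404 in Col-0 and 20532, 18772 and 22345 in mSPL13. PYK10, a beta-glucosidase of root and hypocotyl ER bodies, gave 20879, 20292 and 19589 against 18530.0, 19864 and 19397. The seed-storage gene AT1G03890 was near the bottom of the scale, with means of 3.97 and 8.07. OLEO3, an oil-body gene of the same list, was higher, at 122, 132 and 81.0 in Col-0 and 58.3, 87.0 and 97.7 in mSPL13. It was under the filter on low signal and was not tested.

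The level of SPL13 could not be read by name, because the annotation used here pairs no probe set with that gene. Only 1 of the 17 SPL genes was tested, SPL16 (AT1G76580), at 104, 106 and 145 in Col-0 and 104, 115 and 105 in mSPL13, a log2 difference of -0.10 ± 0.20 (moderated SE) with an adjusted p of 0.834. The smallest adjusted p of all belonged to probe set 248524_s_at, which has no gene listed. Its signals were 412, 389.5 and 369 in Col-0 and 4382, 3722 and 3821 in mSPL13, with 1159.8, 1438 and 1378 on the arrays of the non-mutated transgene. The 3 genotypes did not overlap at this probe set, and mSPL13 was 9.71-fold above Col-0 (log2 3.28 ± 0.12, adjusted p = 2.19e-09).

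Of 13647 probe sets tested, 282 rose and 314 fell from Col-0 to mSPL13 at an adjusted p under 0.05. These calls made up 2.07% and 2.30% of the tested probe sets, and 4.37% together. In 593 of the 596 the 3 mSPL13 signals lay outside the range of the 3 Col-0 signals. Such a separation largely follows from the call itself and is no separate support for it. Nuclear genes of the annotation accounted for 292 calls, 135 higher and 157 lower, of which 30 and 40 differed at least 2-fold. The counts depended on single arrays. Without Col-0 replicate 3 they rose to 456 higher and 450 lower, and without Col-0 replicate 1 or 2 they dropped to 157 and 169 or to 119 and 127. Without mSPL13 replicate 1, 2 or 3 they were 127 and 164, 191 and 207, or 154 and 153. In each of these 6 fits and in a fit with no filter on low signal, 187 probe sets were called with the same sign, 91 higher and 96 lower. Among these were 87 named nuclear genes, 39 higher and 48 lower, and such genes are called stable below. A fold is the antilog of the difference of mean log2(signal + 20.7), which understates changes of dim genes.

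**Figure D1:**
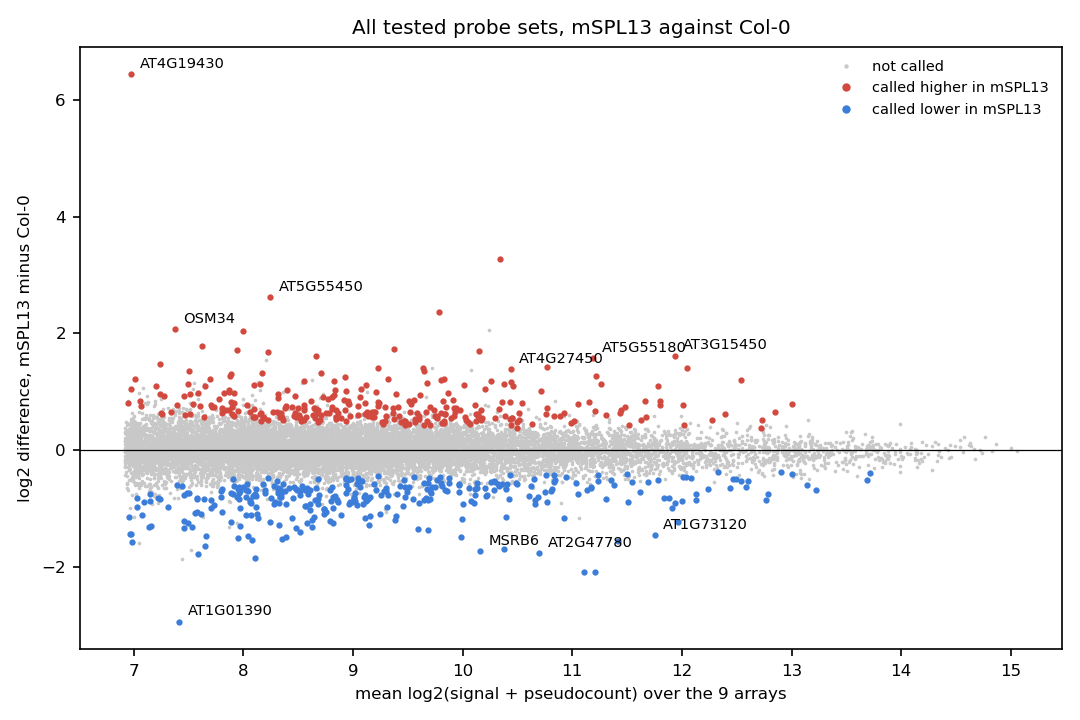
Log2 difference between mSPL13 and Col-0 (vertical axis) against mean log2(signal + 20.7) over the 9 arrays (horizontal axis) for the 13647 tested probe sets, with the 282 higher calls in red, the 314 lower calls in blue and the other probe sets in grey. AT4G19430 stands alone at the top with a log2 difference of 6.44, and AT1G01390 is lowest among the named genes at -2.94.

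The largest rise of a named nuclear gene was at AT4G19430. Its signals were 2.4, 29.3 and 2.2 in Col-0, 1.2, 14.0 and 2.8 with the non-mutated transgene and 2546, 2348 and 2804 in mSPL13. The probe set was close to the bottom of the scale in every array without mSPL13 and among the bright ones in every mSPL13 array. The fitted log2 difference of 6.44 ± 0.28 (adjusted p = 1.13e-08) depends on the value added before the log, since Col-0 was near the bottom of the scale, and was 4.58 with 100.9 added in place of 20.7. It is not a measure of the true fold. It passed the filter on low signal only through mSPL13, and it dropped below that filter when any mSPL13 array was left out or when a smaller value or none was added. Of the 2 genes on either side of it, AT4G19440 and AT4G19450 have a probe set. AT4G19440 was dim in both groups, at 71.6, 54.8 and 95.5 in Col-0 and 28.4, 71.2 and 54.1 in mSPL13, and was not tested. AT4G19450 gave 259.9, 212 and 255 against 222, 286 and 260.5 (log2 0.07 ± 0.14, adjusted p = 0.831).

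The largest stable rise of a named gene was at AT5G55450, of the lipid transfer protein family, whose members are secreted and bind lipids. It rose from 119, 93.8 and 191 in Col-0 to 943, 966 and 804 in mSPL13, a 6.14-fold difference (log2 2.62 ± 0.19, adjusted p = 5.21e-06). AT1G62500, of the same family, had closely spaced Col-0 signals of 171, 178 and 174 and mSPL13 signals of 674, 644 and 508 (3.21-fold, adjusted p = 5.48e-05). AT4G22490, also of this family, fell from 549, 612 and 433 to 188, 231 and 148, 2.64-fold (log2 -1.40 ± 0.17, adjusted p = 0.000491).

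AT5G55180, a glycosyl hydrolase of the family of beta-1,3-glucanases, was bright and tightly replicated. Its signals were 1803, 1530.2 and 1621 in Col-0 and 5149, 4804 and 4976 in mSPL13, 2.99-fold apart (log2 1.58 ± 0.11, adjusted p = 5.21e-06). OSM34, an osmotin-like protein related to those induced by osmotic stress and pathogens, rose from 108, 36.3 and 85.9 to 296, 256 and 641, 4.2-fold (adjusted p = 0.00652). Its mSPL13 signals were the most spread of the leading rises, with replicate 3 above both others. AT2G19970, of the family of the pathogenesis-related protein PR-1, rose from 123, 87.7 and 240.0 to 392, 396 and 333 (2.46-fold, adjusted p = 0.00797). AT4G25780, another PR-1-like gene that was chosen after its values were seen, fell from 417, 499.6 and 457 to 218, 188 and 175 (log2 -1.16 ± 0.13, adjusted p = 0.0003). AT1G30820, a CTP synthase, which makes a precursor of nucleic acids and phospholipids, rose from 248, 329 and 408 to 889, 683 and 719.8 (2.27-fold, adjusted p = 0.00128). AT3G13175 rose from 94.9, 60.6 and 102 to 284, 257 and 269.7 (2.77-fold, adjusted p = 0.00239). OSM34, GAT1_2.1 and AT3G13175 had a Col-0 mean under the filter level of 100.6, so they passed the filter through mSPL13.

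**Figure D2:**
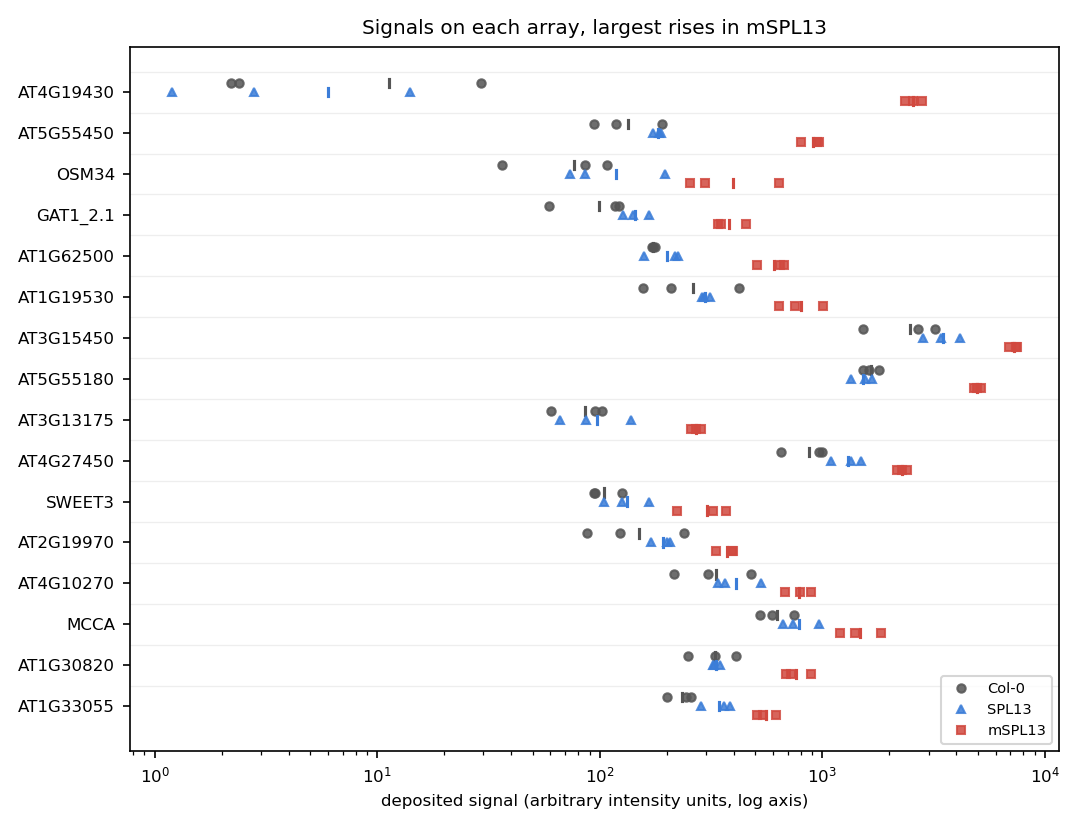
Deposited signal on each array (log axis, arbitrary units) for AT4G19430 and the 15 largest stable rises, with Col-0 as grey circles, the non-mutated SPL13 transgene as blue triangles and mSPL13 as red squares; short bars are group means. In all 15 genes below AT4G19430 every mSPL13 signal lies above every signal of the other 2 genotypes. The separation from Col-0 was a condition for the choice of these 15.

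Genes that respond to sugar starvation were among the leading rises. The kinase SnRK1 is the plant's sensor of low energy, and it switches on genes that break down reserves. Of 4 tested members of the starvation and SnRK1 list 3 were called higher, all of them stable, with a median log2 difference of 1.36 against 0.01 over all tested probe sets. The list names 29 genes, so most of it was not measured. The share of calls over all tested probe sets, 2.07% higher and 2.30% lower, is the background of every count of list or family members given here. Members and lists were chosen with earlier results of these data known. A list count above that share is therefore descriptive and no independent support for a shift of the list. GAT1_2.1, a glutamine amidotransferase, rose from 117, 59.4 and 122 in Col-0 to 349.8, 456 and 338 in mSPL13 (3.43-fold, adjusted p = 0.000499), while the second probe set of this gene, with means of 22.2 and 4.33, was too dim to test. The tested probe set had a Col-0 mean of 99.5, under the filter level of 100.6, and so reached the test, and this count, through its mSPL13 signals. AT3G15450, a bright gene known to be induced in darkness and by sugar starvation, had 1527, 2683 and 3193 in Col-0 and 6909.7, 7496 and 7429 in mSPL13 (3.07-fold, adjusted p = 0.000938). AKINBETA1, a regulatory beta subunit of SnRK1 itself, rose from 559, 833 and 738 to 1447, 1449.6 and 1720.4 (2.15-fold, adjusted p = 0.000973). Each of these 3 genes had its groups apart. BZIP53, a transcription factor of the same network, was at 2094, 1919 and 2026 against 2648, 2009 and 2451 and was not called (log2 0.22 ± 0.12, adjusted p = 0.303).

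The mitochondrial breakdown of leucine and related amino acids feeds electrons to respiration when sugar is short. Of 9 tested members 3 were called higher and none lower, with a median log2 difference of 0.34. MCCA, the biotin-containing subunit of methylcrotonyl-CoA carboxylase, rose from 526, 594 and 748 to 1396, 1200.2 and 1835 (2.31-fold, adjusted p = 0.00207). IVD, isovaleryl-CoA dehydrogenase, rose from 613, 559.5 and 604 to 886, 955 and 1002 (1.58-fold, adjusted p = 0.00592). Both were stable. ETFQO, which passes the electrons on to ubiquinone, had 292, 302 and 309.7 against 425, 389 and 570.4 (1.48-fold, adjusted p = 0.0471). That call was lost when any array other than mSPL13 replicate 2 was left out, at log2 values of 0.41 to 0.61. MCCB, the partner subunit of MCCA, was not called, at 984, 889 and 1131 against 1362, 1249 and 1280.3 (log2 0.37 ± 0.13, adjusted p = 0.117). AT5G09300, a subunit of the branched-chain keto acid dehydrogenase, had the lowest value of the list at -0.50 ± 0.15 (adjusted p = 0.0795). In all, 6 members of the pathway were not called.

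Transcripts that accumulate under low oxygen gave the highest share of calls among the lists with at least 5 tested members. This ranking is descriptive too, because the lists were chosen with earlier results of these data known. Of the 30 genes on the low oxygen list 8 were tested. Among these, 6 were called higher and none lower, with a median log2 difference of 1.08. Plants deprived of oxygen switch to fermentation and induce a core set of small proteins, many without a known function. AT1G19530 rose from 157, 209 and 421 in Col-0 to 639.5, 1005 and 751 in mSPL13 (3.07-fold, adjusted p = 0.00328). Col-0 replicate 3 was the highest of its group, and still below every mSPL13 array. AT4G27450 rose from 654, 997 and 966 to 2278, 2408 and 2159.5 (2.62-fold, adjusted p = 0.00035). AT4G10270, of the wound-responsive family, rose from 216, 477 and 306 to 893, 790.1 and 679 (2.38-fold, adjusted p = 0.00723). AT1G33055 rose from 200.1, 244 and 258 to 509, 617 and 541 (2.27-fold, adjusted p = 0.000628). These 4 genes were stable.

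The other 2 calls of that list depended on single arrays. AT1G74940 had 289, 291 and 345 against 487, 561 and 522 (log2 0.73 ± 0.14, adjusted p = 0.0104), and without Col-0 replicate 2 its log2 difference was 0.69 with an adjusted p of 0.0521. AT3G27220 had 106, 113 and 141 against 302, 233 and 239 (log2 0.99 ± 0.22, adjusted p = 0.0202), and was not called without replicate 1 or 2 of Col-0 or 1 or 3 of mSPL13 (log2 0.88 to 1.03). AT3G10020, a further hypoxia-responsive gene that was chosen after its values were seen, rose from 704, 997 and 1376 to 2262, 1879 and 2631 (2.23-fold, adjusted p = 0.00444). The only fermentation enzyme of the list that could be tested was not called. PDC2, a pyruvate decarboxylase, was at 419, 282 and 446 against 455, 318 and 548 (log2 0.19 ± 0.21, adjusted p = 0.683). AT5G66985, another small hypoxia-responsive gene, was at 149.9, 179 and 337 against 237, 364 and 169 (log2 0.21 ± 0.27, adjusted p = 0.724).

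SWEET proteins move sugars across membranes along the gradient. Of 10 tested sugar transporters 2 were called higher and none lower, with a median log2 difference of -0.03. SWEET3 rose from 94.9, 94.3 and 126 to 221, 371 and 321 (2.55-fold, adjusted p = 0.00249) and was stable. SWEET17, a fructose carrier of the vacuole membrane, was called at 304, 425 and 447 against 760.2, 623 and 662 (1.72-fold, adjusted p = 0.0389), and only the fit without Col-0 replicate 3 among the 6 fits with an array left out kept the call (log2 0.62 to 0.85 in the others). The remaining members ranged from -0.56 (SFP1) to 0.40 (SWEET11) and were not called. AT1G68570, a transporter of the nitrate and peptide family also known as NPF3.1, chosen after its values were seen, rose from 248, 259 and 197 to 519, 593 and 408 (2.05-fold, adjusted p = 0.00257).

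**Figure D3:**
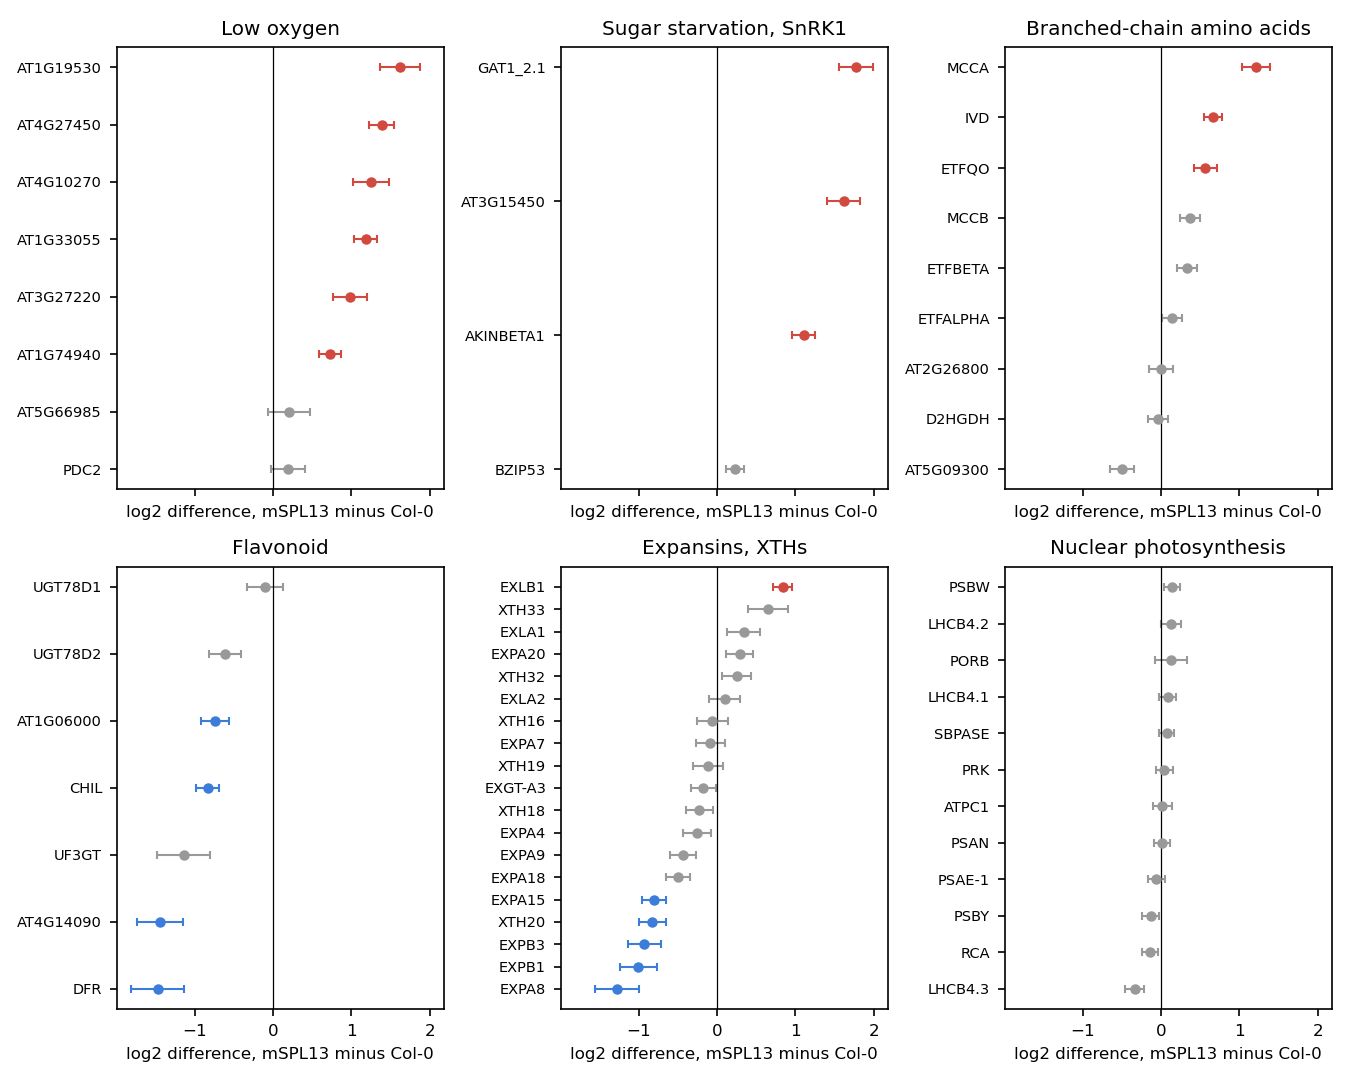
Log2 difference between mSPL13 and Col-0 with its moderated standard error for the tested members of 6 gene lists; red and blue mark members called higher and lower, grey those not called. The low oxygen and starvation panels lie to the right of 0, with 6 of 8 and 3 of 4 members called higher, and the 12 nuclear photosynthesis genes lie near 0 with none called.

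Among regulators of development, SPCH rose. SPCH is the basic helix-loop-helix factor that starts the stomatal lineage in the epidermis. Its signals were 157, 164 and 191 in Col-0, 209, 229 and 292 with the non-mutated transgene and 479.6, 417 and 302 in mSPL13, a 2.17-fold difference between mSPL13 and Col-0 (log2 1.11 ± 0.18, adjusted p = 0.00315), and the call was stable. Factors of later steps of the lineage, MUTE and FMA (FAMA), were too dim to test, with means of 52.7 and 50.7 for MUTE and 89.1 and 121.3 for FMA in Col-0 and mSPL13. STOMAGEN, a secreted peptide that promotes stomatal development, was at 1442, 1284 and 1063 against 1203, 1091 and 1348 (log2 -0.05 ± 0.13, adjusted p = 0.88). SPCH lies next to TRY, a repressor of trichome fate, and SWEET3 is the gene beyond TRY. TRY itself was too dim to test, at 78.3, 36.9 and 20 against 80.1, 50.5 and 70.9. Of 5 tested genes of leaf and stomatal development SPCH alone was called.

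SMZ and SNZ, AP2-type repressors of flowering that are targets of the microRNA miR172, both had lower signals in mSPL13. SMZ was called lower, at 400.1, 369.9 and 293 against 248, 232 and 232 (log2 -0.53 ± 0.14, adjusted p = 0.0443), but the call was lost when any array other than Col-0 replicate 3 was left out (log2 -0.56 to -0.44). SNZ was at 174, 201 and 136 in Col-0, 117, 176 and 80.2 with the non-mutated transgene and 19.2, 17.9 and 6.4 in mSPL13. Its mean over the 9 arrays was under the filter, so it was not among the tested probe sets. In the fit with no filter it was lower in mSPL13 by a log2 difference of -2.45 ± 0.27 with an adjusted p of 0.00191. GI and AGL18, the other tested members of the phase change and flowering list, were not called (log2 0.02 ± 0.16 and 0.20 ± 0.15).

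Members of the cell cycle list differed by small amounts. Of 7 tested members of the cell cycle list 6 had a positive difference, with a median of 0.31, and 1 was called. AUR2, an Aurora kinase of the mitotic spindle, had 581, 626 and 641 against 855, 865 and 788 (1.35-fold, adjusted p = 0.0417), and the call was lost when any array other than Col-0 replicate 3 was left out (log2 0.39 to 0.47). Its paralogue AUR1 had 868, 882 and 998 against 1378, 1261 and 1087 (log2 0.43 ± 0.12, adjusted p = 0.0681) and AUR3 a log2 difference of 0.39 ± 0.18 (adjusted p = 0.251). Without Col-0 replicate 3 both AUR2 and AUR1 were called, the latter at log2 0.49 (adjusted p = 0.049). Further genes with a role in division were stable and were chosen after their values were seen. FU, a FUSED-type kinase needed for cytokinesis, rose from 364, 339 and 426 to 894, 743 and 758 (2.06-fold, adjusted p = 0.00104). TOPII, the topoisomerase that untangles chromosomes, rose from 622, 398 and 742 to 1134, 1101 and 1116 (1.93-fold, adjusted p = 0.00927). AT1G63100, a GRAS-type regulator also known as SCL28, rose from 184, 116 and 111 to 333, 293 and 306 (2.14-fold, adjusted p = 0.00345). TUA1, an alpha-tubulin and the only called gene among 7 tubulins, was at 319.8, 441 and 312 against 548, 553 and 570.4 (log2 0.63 ± 0.16, adjusted p = 0.0378), with the call lost when any array other than Col-0 replicate 2 was left out (log2 0.54 to 0.64).

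Auxin response genes gave 2 calls among 6 tested, both lower and both stable. Aux/IAA proteins repress auxin-responsive transcription. IAA20, an Aux/IAA protein without the usual degradation motif, fell from 183, 232 and 309 in Col-0 to 78.4, 98.1 and 73.4 in mSPL13, 2.48-fold (log2 -1.31 ± 0.20, adjusted p = 0.00249). HAT2, a homeodomain-leucine zipper factor induced by auxin, fell from 727, 625 and 543 to 329, 256 and 261 (log2 -1.11 ± 0.14, adjusted p = 0.000676). IAA34, another Aux/IAA gene, was under the filter, at 135, 196 and 130.4 against 38.7, 39.1 and 42.1, and the fit with no filter gave a log2 difference of -1.51 ± 0.20 and an adjusted p of 0.00606. The auxin-conjugating enzymes GH3.3, GH3.17 and WES1 were not called, at log2 0.39 ± 0.16, -0.26 ± 0.18 and -0.20 ± 0.15, but without Col-0 replicate 3 GH3.17 was called lower (log2 -0.52, adjusted p = 0.0333).

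The largest fall was at AT1G01390, a UDP-dependent glycosyltransferase, an enzyme class that attaches sugars to small molecules. Its signals were 297, 469.7 and 374 in Col-0, 189.9, 176 and 343 with the non-mutated transgene and 15.1, 34.5 and 48.1 in mSPL13, where it was close to the bottom of the scale. The difference was 7.67-fold (log2 -2.94 ± 0.27, adjusted p = 5.3e-05), and with 100.9 added before the log in place of 20.7 its log2 value was -1.84. UGT76C2, which inactivates cytokinins by adding glucose, fell from 725, 1043 and 916 to 405, 372 and 403, 2.19-fold (adjusted p = 0.000852). Its neighbour and paralogue UGT76C1 was at 295, 304 and 299 against 232, 245 and 235 and was not called (log2 -0.31 ± 0.12, adjusted p = 0.182). UGT84A1, which glucosylates hydroxycinnamic acids, fell from 382, 272 and 184 to 100.4, 99.7 and 102 (log2 -1.25 ± 0.23, adjusted p = 0.00665). The 29 tested genes with a UGT symbol or synonym had 3 lower calls, no higher call and a median log2 difference of -0.10. UGT84A1 had an mSPL13 mean just under the filter level of 100.6 and entered this count through the other arrays. AT1G01390 and AT4G14090, a glycosyltransferase called lower that is described below, are not among these 29.

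AT1G28600, of the GDSL lipases, a large class of secreted esterases, fell from 510.0, 530.2 and 364 to 154, 151 and 138, 2.87-fold (adjusted p = 9.12e-05). AT1G28570, from the same stretch of neighbouring GDSL genes, fell from 745, 848 and 663 to 374, 317 and 278 (log2 -1.17 ± 0.14, adjusted p = 0.000432), and AT3G48460 from 990.5, 1067 and 768 to 357, 468 and 373 (log2 -1.19 ± 0.14, adjusted p = 0.000492). Both of these were chosen after their values were seen. AT1G28580, between AT1G28570 and AT1G28600, was bright, at 4161, 3928 and 3132 against 2003, 2886 and 2926, and was not called (log2 -0.53 ± 0.16, adjusted p = 0.0728). The genes next to AT1G28600 on either side, AT1G28590 and AT1G28610, were too dim to test. Their Col-0 and mSPL13 means were 18.5 and 13.1 for AT1G28590, and 60.6 and 53.8 for AT1G28610.

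AT2G47780, of the family of rubber elongation factor proteins that coat lipid droplets, fell from 2826, 3489 and 2398 to 795, 1319 and 537, 3.41-fold (adjusted p = 0.00128). MSRB6, a methionine sulfoxide reductase, which repairs oxidised methionine, fell from 1103, 2518 and 1801 to 477, 497 and 538 (3.3-fold, adjusted p = 0.00262). Its Col-0 signals were spread more than 2-fold, while the mSPL13 signals lay close together and below all of them. MSRB5, MSRB3 and MSRB9 were not called, at log2 -0.29 ± 0.18, -0.34 ± 0.16 and 0.10 ± 0.13. AT1G06830 (GRXS11), a glutaredoxin, was called lower at 161, 239 and 222 against 72.1, 137 and 60.4 (log2 -1.09 ± 0.23, adjusted p = 0.0158), and was not called without replicate 2 of Col-0 or 1 or 3 of mSPL13 (log2 -1.0 to -0.90).

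The remaining leading falls were of mixed kinds. AT1G67910 fell from 3419.5, 4851 and 3944 to 1524, 1716 and 948 (log2 -1.56 ± 0.19, adjusted p = 0.000491). AT1G73120, the brightest of the leading falls, went from 4489.7, 6182 and 4479.8 to 1899, 1804 and 1731 (2.74-fold, adjusted p = 2.55e-05), with mSPL13 signals within a narrow range. AT3G59340, a membrane protein of the solute carrier class, fell from 254, 320.3 and 255 to 75.0, 119 and 69.2 (log2 -1.48 ± 0.18, adjusted p = 0.000499). AT5G51440, a small heat shock protein of the HSP20 class, fell from 224, 199 and 274 to 89.0, 73.5 and 74.5 (log2 -1.33 ± 0.21, adjusted p = 0.00257). AT2G14060, of the methyltransferase family that modifies salicylate and jasmonate, fell from 157, 246 and 162 to 43.8, 90.9 and 56.9 (log2 -1.32 ± 0.24, adjusted p = 0.00617). With 100.9 added before the log the last pair were at -0.88 and -0.81. AT5G44580, AT2G23910 and AT2G25510 fell by log2 differences between -1.36 and -1.28 with adjusted p-values of 0.00329, 0.00128 and 0.00535. Of the 15 largest stable falls 6 had an mSPL13 mean under the filter level, among them AT1G01390, IAA20 and AT2G14060. BZIP61, chosen as the called gene among 11 bZIP factors, fell from 428, 372 and 521 to 244, 179 and 244 (log2 -0.92 ± 0.16, adjusted p = 0.00588).

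**Figure D4:**
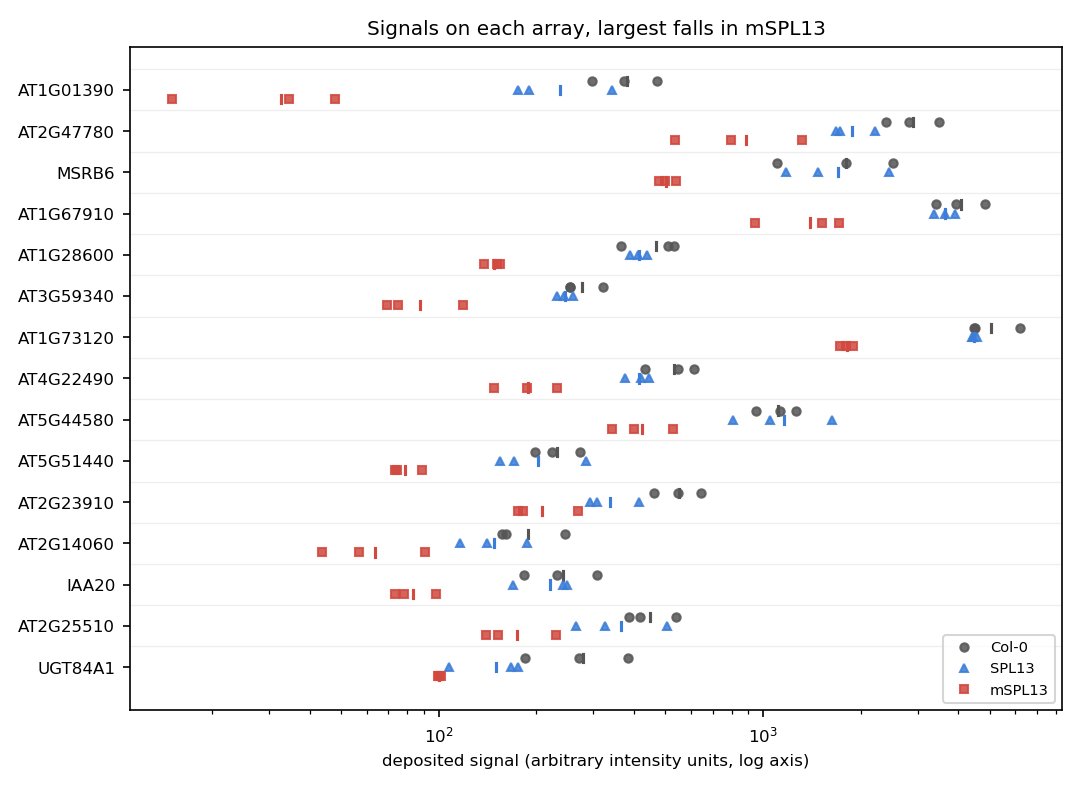
Deposited signal on each array (log axis, arbitrary units) for the 15 largest stable falls, with Col-0 as grey circles, the non-mutated SPL13 transgene as blue triangles and mSPL13 as red squares; short bars are group means. In all 15 genes every mSPL13 signal lies below every signal of the other 2 genotypes, and in 12 of them the blue and grey ranges overlap. The separation from Col-0 was a condition for the choice of these genes.

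Of 7 tested flavonoid genes 4 were called lower in mSPL13, and on these genes 1 of the 3 Col-0 arrays stood close to mSPL13. All 7 had a negative difference, with a median of -0.84. CHIL, which helps chalcone synthase at the entry to the pathway, fell from 1017, 936 and 819 to 509, 441 and 579 (log2 -0.84 ± 0.14, adjusted p = 0.00444) and was the stable one. DFR, dihydroflavonol reductase of the anthocyanin branch, had 524, 704 and 197 in Col-0, 242, 267 and 208 with the non-mutated transgene and 121, 204 and 107 in mSPL13. Col-0 replicate 3 lay within the mSPL13 range, so the groups overlapped, and the log2 difference was -1.47 ± 0.34 (adjusted p = 0.0252). Left-out arrays moved it from -1.11 without Col-0 replicate 2 to -1.98 without Col-0 replicate 3, and the call was lost without replicate 1 or 2 of Col-0 or 1 or 3 of mSPL13. AT4G14090 (UGT75C1), an anthocyanin glucosyltransferase, had 275, 251 and 108 against 39.2, 82.9 and 62.0 (log2 -1.44 ± 0.29, adjusted p = 0.0139). It was not called without mSPL13 replicate 1 (log2 -1.24, adjusted p = 0.0666) and was under the filter without Col-0 replicate 1 or 2, and with 100.9 added before the log its log2 value was -0.91.

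AT1G06000 (UGT89C1), a flavonol rhamnosyltransferase, had 1412, 938 and 828 against 621, 651 and 565 (log2 -0.74 ± 0.18, adjusted p = 0.0318) and was called in the fit without Col-0 replicate 3 alone among the 6 fits with an array left out (log2 -0.80 to -0.51 in the others). UF3GT, UGT78D2 and UGT78D1 were not called, at log2 -1.14 ± 0.34, -0.61 ± 0.20 and -0.10 ± 0.22. The list median relative to the Col-0 mean was 0.32 on Col-0 replicates 1 and 2, -0.53 on Col-0 replicate 3, between -0.58 and -0.53 with the non-mutated transgene and between -0.85 and -0.79 in mSPL13. Col-0 replicate 3 was thus nearer to both transgenic genotypes than to its own group for these genes. Without it the log2 differences were -1.82 for AT4G14090, -0.89 for AT1G06000 and -0.92 for CHIL, and 6 of the 7 genes were called. The 2 calls gained were UF3GT at log2 -1.64 (adjusted p = 0.00155) and UGT78D2 at -0.88 (adjusted p = 0.00762).

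Defence-related glucosinolates are sulphur compounds that myrosinases turn into toxic products. All 4 tested genes of the aliphatic branch had a negative difference, and 2 were called lower. BCAT4, the aminotransferase at the start of methionine side-chain elongation, had 976, 469 and 569.7 against 393, 219 and 197 (log2 -1.25 ± 0.29, adjusted p = 0.0286), and was not called without replicate 1 of Col-0 or 2 or 3 of mSPL13 (log2 -1.14 to -0.95). AT2G31790 (UGT74C1), a glucosyltransferase of the core pathway, had 799, 829 and 934 against 566, 549.8 and 522 (log2 -0.62 ± 0.13, adjusted p = 0.015), and was not called without replicate 2 of Col-0 or 3 of mSPL13 (log2 -0.64 to -0.59). NAI2, which shapes the ER bodies that store myrosinase-type enzymes, fell from 6173, 5848 and 5151 to 3285, 4016 and 3483 (log2 -0.67 ± 0.11, adjusted p = 0.00377) and was stable. PYK10, the main content of those bodies, was not called (log2 -0.07 ± 0.09, adjusted p = 0.699). NAI2 also serves as a marker of roots. The other 3 tested root markers, EXPA18, PYK10 and EXPA7, were not called, at log2 -0.50 ± 0.15, -0.07 ± 0.09 and -0.09 ± 0.18, and their part in the fall of NAI2 was not tested. Without Col-0 replicate 3 EXPA18 was called lower too (log2 -0.61, adjusted p = 0.0389).

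Expansins loosen cell walls during growth, and XTH enzymes cut and rejoin xyloglucan. Of 19 tested members 1 was called higher and 5 lower, with a median log2 difference of -0.18. EXLB1, an expansin-like protein, rose from 284, 276 and 293 to 520.1, 537 and 516 (1.79-fold, adjusted p = 0.00207) and was stable. EXPA8 was called lower at 1009, 1025 and 511 against 349, 465 and 204 (log2 -1.27 ± 0.28, adjusted p = 0.0186). EXPB1 was called lower at 806, 712 and 369 against 316, 276 and 271 (log2 -1.01 ± 0.23, adjusted p = 0.0262). In these alpha- and beta-expansins Col-0 replicate 3 was the lowest of its group and the nearest to mSPL13, and without it the log2 differences were -1.60 and -1.34. EXPB3 was called at log2 -0.93 ± 0.21, EXPA15 at -0.80 ± 0.16 and XTH20 at -0.83 ± 0.17, with adjusted p-values of 0.0222, 0.0103 and 0.0162. Without Col-0 replicate 3 these were -1.21, -0.86 and -0.91, and EXPA18 (log2 -0.61, adjusted p = 0.0389) and XTH33 (log2 1.06, adjusted p = 0.00262) were called as well. With 100.9 added before the log, XTH20 was at -0.51. EXPA15 was not called without mSPL13 replicate 3 (log2 -0.73, adjusted p = 0.0511), nor XTH20 without replicate 1 or 2 of Col-0 or 3 of mSPL13 (log2 -0.84 to -0.72). EXPA8 was not called without replicate 1 or 2 of Col-0 or 1 or 3 of mSPL13 (log2 -1.33 to -0.97), EXPB3 without replicate 1 or 2 of Col-0 or 2 or 3 of mSPL13 (log2 -0.87 to -0.72), and EXPB1 without any array other than Col-0 replicate 3 (log2 -1.07 to -0.80).

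AT5G61590 (DEWAX), an ERF factor that represses wax synthesis in darkness, was the 1 tested member of the cuticle list. It was called higher, at 369, 336 and 1259.7 in Col-0, 1319, 1264 and 1645 with the non-mutated transgene and 1760.3, 1827 and 1827 in mSPL13 (log2 1.70 ± 0.34, adjusted p = 0.0124). Col-0 replicate 3 was again apart from replicates 1 and 2 and near the arrays of the non-mutated transgene. Without Col-0 replicate 1 or 2 the call was lost (log2 1.37 to 1.43), and without Col-0 replicate 3 the log2 difference was 2.29.

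Several lists had no called member. None of 12 nuclear photosynthesis genes, 3 genes of seed oil mobilisation, 4 heat shock genes and GI, the clock gene, passed the test, against 4.37% of all tested probe sets. At that share groups this small often hold no call. The photosynthesis list names 64 genes, so most of it was not measured. Without Col-0 replicate 3 ICL, of the oil list, was called lower (log2 -0.40, adjusted p = 0.0375). The photosynthesis genes had a median log2 difference of 0.03 and ranged from -0.34 (LHCB4.3) to 0.14 (PSBW). Their adjusted p-values were 0.141 for LHCB4.3, an antenna protein of photosystem II, and 0.487 for PSBW, a small subunit of that photosystem. ICL, isocitrate lyase, which turns seed oil into sugar after germination, was at 13616, 12976 and 9921 against 10018, 10729.8 and 9549 (log2 -0.26 ± 0.12, adjusted p = 0.247), and SDP1, a lipase of the oil bodies, at log2 0.10 ± 0.13 (adjusted p = 0.725). The heat shock genes all had negative differences, with a median of -0.45, led by AT2G29500 (HSP17.6B) at -0.54 ± 0.21 (adjusted p = 0.174) and AT5G48570 (ROF2) at -0.55 ± 0.22 (adjusted p = 0.182). AT5G51440, the HSP20-class gene described above, is not on that list and fell. Of the cold and dehydration genes OSM34 alone was called among 4, and it passed the filter through mSPL13. LTI30, COR47 and the probe set shared by KIN1 and KIN2 had log2 differences of 0.23 ± 0.14, 0.12 ± 0.16 and 0.10 ± 0.17. The members of the lists of nitrogen and sulphur assimilation, of jasmonate, salicylate and defence, and of seed storage did not reach the test.

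Families grouped by gene symbol or synonym were mostly without calls as well. None was called among 19 trichome birefringence-like genes (median log2 -0.14), 9 glutathione transferases (-0.34), 5 histones (-0.04), 5 WRKY factors (-0.05) and 5 glycosyl hydrolases (-0.18). At the background of 4.37% groups of this size often hold no call. These families hold genes by symbol or synonym alone, so that AT5G55180, a glycosyl hydrolase that rose, is not among them. Among 13 cytochromes P450 CYP71B28 was called, at 214, 235 and 229.7 against 308, 372 and 317 (log2 0.51 ± 0.13, adjusted p = 0.0477), and the call was lost whichever array was left out (log2 0.43 to 0.56). Plastid-encoded genes gave 2 calls among 66 tested, or 3.03% against 4.37% of all tested probe sets, which is near the background, and their median log2 difference was 0.15.

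**Figure D5:**
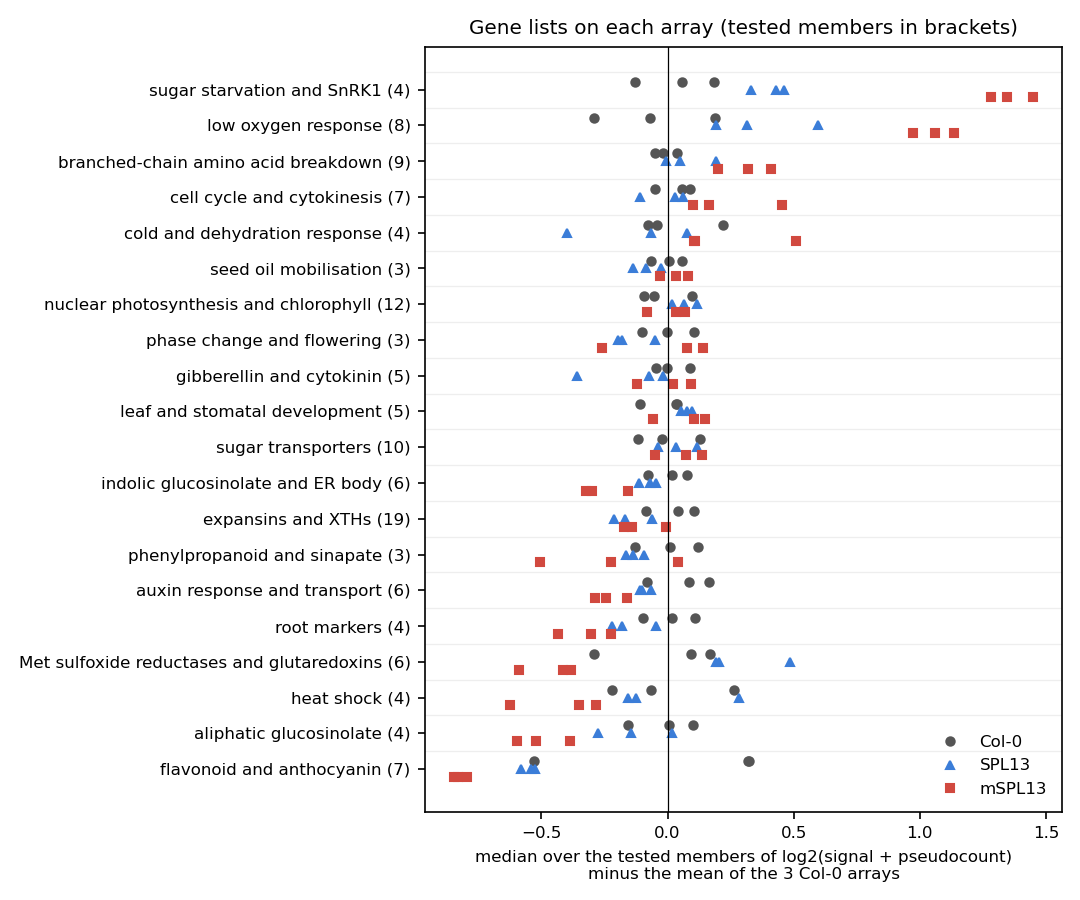
Median over the tested members of each gene list of log2(signal + 20.7) minus the mean of the 3 Col-0 arrays, shown per array for lists with at least 3 tested members (numbers in brackets), with Col-0 as grey circles, the non-mutated SPL13 transgene as blue triangles and mSPL13 as red squares. The mSPL13 arrays sit between 1.28 and 1.45 for the starvation list and between 0.97 and 1.14 for the low oxygen list, and Col-0 replicate 3 sits at -0.53 for the flavonoid list.

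The arrays of the non-mutated transgene give these changes a scale, though they share the fit with both groups. In all 15 of the largest stable rises every signal with the non-mutated transgene was below every mSPL13 signal, and in 12 of them its range overlapped that of Col-0. In all 15 of the largest stable falls every such signal was above every mSPL13 signal, and 12 again overlapped Col-0. AT1G33055 and AT4G27450 were among the exceptions, with 286, 362 and 383 and 1095, 1347 and 1487 under the non-mutated transgene, above all Col-0 arrays and below all mSPL13 arrays. The list medians relative to the Col-0 mean lay between 0.33 and 0.46 with the non-mutated transgene for the starvation list and between 0.19 and 0.60 for the low oxygen list.

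Probe sets with no gene listed made up 291 of the 596 calls. Besides 248524_s_at, the stable ones with the largest differences were 267461_at, at 196, 403 and 764 in Col-0 and 1982, 1535 and 3145 in mSPL13 (5.16-fold higher), and 260221_at and 263595_at, which were 4.26-fold and 4.24-fold lower. The last of these had 4285, 4506 and 3556 in Col-0 and 1020.4, 942 and 889.7 in mSPL13, with the groups far apart on every array.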

How the data were processed

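RNA of whole seedlings was hybridised to 1-colour Affymetrix arrays. The authors deposited linear intensity values, 1 per probe set and array. GCOS and MAS5 are the tools that the submitters' processing notes name for them. Array dates and detection calls were not used here. Of 22810 probe sets 64 are controls, which were left out. The platform annotation gives 1 gene for 13513, several for 503 and none for 8730. The TAIR10.1 gene table holds 13436 of the 13513 and served for names and neighbours only.

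Signals were transformed as log2(signal + 20.7), the 20th percentile of the 22746 other probe sets. Probe sets with a mean log2 value over the 9 arrays above the 40th percentile (6.92) were tested, 13647 in all. All 9 arrays entered 1 linear model of genotype means in limma (version 3.58.1, under R 4.3.3), with eBayes and a trend on mean signal. The residual degrees of freedom were 6 and the prior ones 7.92. Every adjusted p of a gene comes from limma with Benjamini-Hochberg adjustment over all tested probe sets, and a call is an adjusted p under 0.05. Errors of signals are SDs (n = 3) and those of log2 differences are moderated SEs. The number of arrays limits the precision. On simulated signals of this comparison, over 13647 probe sets with 200 changed, 38.8% of those changed 1.5-fold, 94% at 2-fold and 100% at 4-fold were recovered, and 4.91% of the calls were unchanged probe sets. The simulated signals were independent normal values with the fitted spread, as the test assumes, so the share of unchanged calls largely follows from the set-up. They held no deviating array such as Col-0 replicate 3, so these shares may not hold for the real arrays.

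Named genes were the 15 largest rises and falls among nuclear probe sets of 1 gene that were called with groups apart and stayed called in each fit with 1 array left out and with no filter, every called member of 26 gene lists, SPL genes, family leaders and the neighbours of the largest rise. The lists hold 803 genes, of which 189 have a probe set in the annotation and 129 were tested. The members and lists were chosen with earlier results of these data known. Further named genes, marked as such where they appear, were added after their values were seen. Alternatives were other pseudocounts and filters, quantile normalization, median centring, eBayes without trend, the 6 arrays alone, array quality weights, a replicate block, omission of organelle-encoded probe sets and each array left out. Python 3.11.15 was used for tables (pandas 2.3.3, numpy 2.4.6), permutation tests (scipy 1.17.1) and plots (matplotlib 3.10.9).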

Additional observations from a re-analysis of the deposited data

How the results depend on the processing

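The counts of 282 higher and 314 lower probe sets ranged from 119 to 456 and from 127 to 450 when each array was left out in turn, lowest without Col-0 replicate 2 (higher and lower) and highest without Col-0 replicate 3. With no filter on low signal 197 were higher and 176 lower, with more probe sets tested. The other alternatives gave between 228 and 311 higher and between 244 and 345 lower. With a replicate block the counts were 295 and 329. The labels do not say whether same-numbered arrays form pairs. Deviations of same-numbered Col-0 and mSPL13 arrays correlated at 0.037, 0.135 and 0.050. With 3 arrays per group these correlations cannot decide whether the arrays were paired. Of 72 called probe sets that are named or belong to a list, none changed sign under any alternative. With no filter 59 of the 72 were still called and 13 were not, among them DFR, EXPA8, EXPB1, EXPB3, AT4G14090, BCAT4, ETFQO, SWEET17 and AT5G61590. With the 60th percentile filter 50 were tested and called and 22 were not tested. Without Col-0 replicate 1, 2 or 3 the calls lost were 13, 15 and 1, and without mSPL13 replicate 1, 2 or 3 they were 11, 7 and 15. Quantile normalization, median centring, the block and array weights each lost 2, and eBayes without trend and the fit on 6 arrays lost 3 each. A pseudocount at the 40th percentile (100.9) reduced the log2 differences of dim genes, to -1.84 for AT1G01390, -0.88 for AT5G51440, -0.81 for AT2G14060, -0.51 for XTH20, -0.91 for AT4G14090 and -0.71 for AT1G06830. Signals near the bottom of the scale limit the folds of AT4G19430 and AT1G01390 most.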
